A study of Mus musculus with 24 samples.

Results

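A set of 9 genes of the mature neutrophil was followed on arrays of CD11b+ cells from mice with myocardial infarction (MI). Its members were the chemokine receptor Cxcr2, the formyl peptide receptors Fpr1 and Fpr2, the G-CSF receptor Csf3r, the calgranulins S100a8 and S100a9, the metalloproteinases Mmp8 and Mmp9, and the peptidylarginine deiminase Padi4. All 9 were found by symbol, through the RefSeq accession of their probe, among 32451 genes or transcripts on the array. Each was well above background on all 22 arrays used, and Padi4 had a second probe.

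CD11b+ cells came from the spleen and the bone marrow of male WT, HDC-KO, and STAT6-KO mice. The methods give a Balb/C background and an age of 10 weeks for the mice of the study. HDC-KO mice lack histidine decarboxylase, the enzyme that makes histamine, and STAT6-KO mice lack the transcription factor STAT6. Cells were taken without MI (control) or 1, 2, or 4 weeks after it, and each array holds the cells of 5 pooled mice. Of the 24 arrays 2 were cut short and not used, the control of HDC-KO in spleen and MI 1 week of STAT6-KO in bone marrow. This left 11 arrays of each tissue and 10 pairs of the same genotype and time point. Each condition rests on 1 array, without a measure of how mice vary. In the fits below, the variation of an effect between genotypes or time points served as the error.

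Neutrophils are made in the bone marrow, pass from promyelocyte through myelocyte to the segmented cell, and are released into the blood and the spleen. Granule proteins appear in order along that path: azurophil granules first, specific granules next, and gelatinase granules, which carry Mmp9, late. Cxcr2 and Csf3r govern the release of neutrophils, formyl peptide receptors guide them to bacterial and mitochondrial peptides, and S100a8 and S100a9 form calprotectin, the most abundant cytosolic protein of the cell. Padi4 converts arginine to citrulline in histones and takes part in the release of neutrophil extracellular traps. CD11b, encoded by Itgam, is carried by neutrophils and their precursors, monocytes, macrophages, and some NK and dendritic cells, so the isolated cells are a mixture.

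Levels are log2 signals minus the 75th percentile of the same array. A level of 3 is therefore a signal well over that percentile, and levels of different genes cannot be ranked against each other, since each probe binds with its own strength. The 75th percentile lay between 928 and 2461 in spleen and between 963 and 1780 in bone marrow, and 0 spots were saturated. Hdc was at 1.67 to 2.78 on the HDC-KO arrays and at 4.32 to 5.51 on the WT arrays. The main Stat6 probe was at 1.76 to 2.44 on the STAT6-KO arrays and at 2.38 to 3.70 on the WT arrays, and a transcript can outlast a deletion that removes the protein. The other Stat6 probes were at 0.73 and 0.20 in the spleen library labelled STAT6-KO, MI 4 weeks, within the WT ranges of 0.05 to 1.29 and -0.43 to 1.99. In the remaining STAT6-KO libraries the first of these probes stayed below WT, at most at -0.29, and the second reached -0.27, inside the WT range. Without that pair of arrays, 7 members still passed in the comparison of the tissues. Arrays with the same scan date were taken as 1 slide. Each slide held 1 genotype in 1 tissue, with the time points in the same positions. Neither genotype nor tissue can therefore be told apart from slide, nor time from position. Pairs of 1 genotype share their slides, so they are not fully independent of each other.

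The 250 bases before the transcription start were taken from a set of RefSeq promoters (build GRCm38.p6). This set held 8 of the 9 genes and had no entry for Mmp9. They are given for Mmp8 and Padi4, which stood among the largest differences between the tissues, and for S100a8 and S100a9, which stood among the smallest. Capitals mark 3 motifs searched in these 250 bases. They are the C/EBP type TTGCNNAA, read on the other strand as TTNNGCAA, the PU.1 type GGAAGT, read as ACTTCC, and the TATA box TATAAA on the gene's strand. No marked motifs overlap.
Mmp8, chr9:7558179-7558428, plus strand: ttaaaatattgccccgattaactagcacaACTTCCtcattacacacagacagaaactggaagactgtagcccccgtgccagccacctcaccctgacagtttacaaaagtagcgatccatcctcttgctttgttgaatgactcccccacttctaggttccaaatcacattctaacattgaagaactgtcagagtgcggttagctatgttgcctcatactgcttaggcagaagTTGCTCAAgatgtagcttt
Padi4, chr4:140774204-140774453, minus strand: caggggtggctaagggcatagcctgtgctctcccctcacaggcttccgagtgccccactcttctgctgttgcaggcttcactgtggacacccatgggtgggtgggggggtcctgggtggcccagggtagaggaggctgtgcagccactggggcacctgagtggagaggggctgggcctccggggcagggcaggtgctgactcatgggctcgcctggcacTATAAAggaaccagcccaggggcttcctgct
S100a8, chr3:90668821-90669070, plus strand: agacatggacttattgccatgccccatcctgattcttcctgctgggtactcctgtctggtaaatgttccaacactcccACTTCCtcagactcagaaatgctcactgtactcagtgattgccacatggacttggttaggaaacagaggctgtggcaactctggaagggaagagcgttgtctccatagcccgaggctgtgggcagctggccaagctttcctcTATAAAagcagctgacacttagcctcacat
S100a9, chr3:90695722-90695971, minus strand: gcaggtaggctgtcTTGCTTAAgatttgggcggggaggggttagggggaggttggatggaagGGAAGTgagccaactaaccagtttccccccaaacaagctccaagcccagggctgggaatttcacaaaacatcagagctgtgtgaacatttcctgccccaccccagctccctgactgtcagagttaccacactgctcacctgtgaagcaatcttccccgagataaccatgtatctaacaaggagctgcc
Padi4 and S100a8 each held a TATA box that began 31 and 30 bases before the start. Mmp8 held a C/EBP type match 19 bases before it and a PU.1 type match at 221 bases. S100a9 held the same motifs at 236 and 188 bases, and S100a8 a PU.1 type match at 172. Of the 8 promoters, 2 held a C/EBP type match, 4 a PU.1 type match, and 4 a TATA box. Among all 32851 promoters of this length, the shares were 9.6%, 19.7%, and 7.6%. These counts take a match anywhere in the 250 bases, and the TATAAA of Fpr1 and Fpr2 began 227 and 130 bases before the start. A match is a run of letters and not a measured site. S100a8 and S100a9 are direct neighbours on chromosome 3 in that annotation, and Fpr1 and Fpr2 are direct neighbours on chromosome 17.

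The members were lower in the spleen than in the bone marrow, and by very different amounts. Mmp9 and Padi4 stood at 16.9 and 17.0% of their bone marrow level, Mmp8 at 25.8%, Fpr2 at 28.1%, and Fpr1 at 29.7%. S100a9 and S100a8 stood at 72.3 and 72.9%, and Cxcr2 and Csf3r, at 79.0 and 84.4%, did not pass the test. In all, 7 of the 9 members were lower in spleen at an adjusted p under 0.05 (limma, 10 pairs). Of all 27659 genes tested, 32.1% were called lower. The median difference was -1.75 on the log2 scale over the members and -0.17 over all genes.

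**Figure D1:**
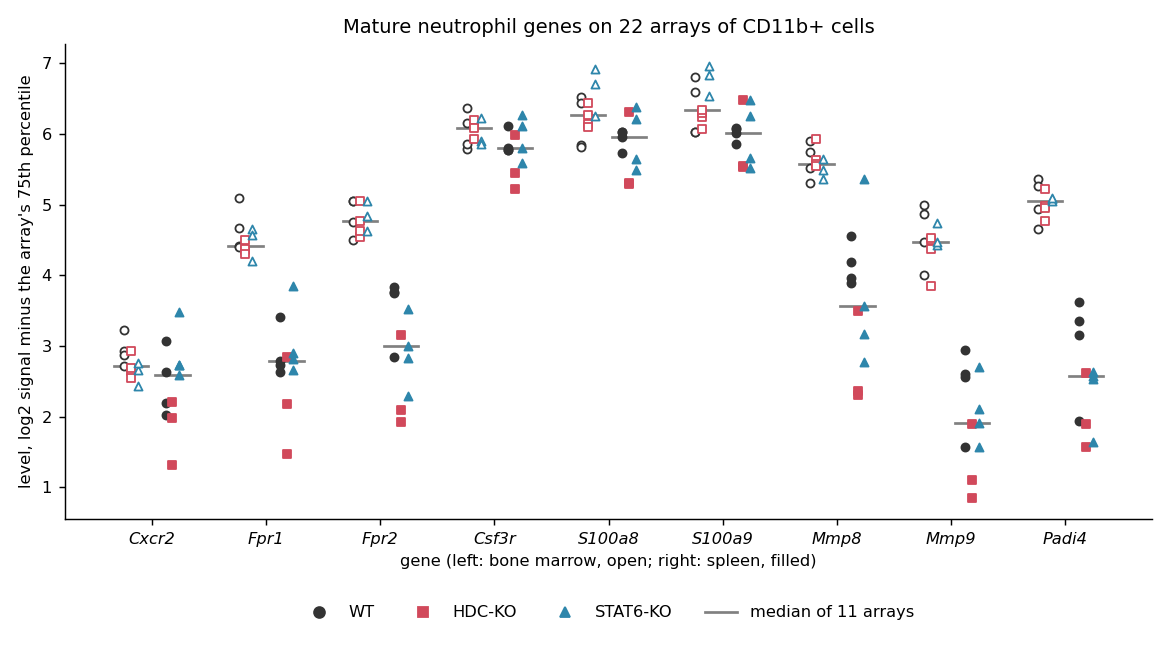
Level of each gene on 22 arrays (log2 signal minus the 75th percentile of the array). Open symbols are bone marrow and filled symbols spleen, shape and colour give the genotype, and grey lines are medians of 11 arrays. Fpr1, Fpr2, Mmp9, and Padi4 do not overlap between the tissues, whereas Csf3r, S100a8, S100a9, Cxcr2, and, by 1 spleen array, Mmp8 do. The share of all genes without overlap was not counted, so this does not set the members apart.

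The metalloproteinases of the neutrophil, which cleave collagen and gelatin, were among the genes with the largest differences. Mmp9, or gelatinase B, ran from 0.85 to 2.94 in spleen (median 1.91) and from 3.85 to 4.99 in bone marrow (median 4.48). The highest spleen array was below the lowest bone marrow array. The difference was -2.57 ± 0.19 (SE, n = 10 pairs, adjusted p = 6.63e-07 by limma), or 5.92-fold, and single pairs lay between -3.52 and -1.73. Its probe is printed 10 times on each array, and the SD over these spots was 0.03 to 0.11 on the log2 scale. Mmp8, or neutrophil collagenase, ran from 2.30 to 5.36 in spleen (median 3.57) and from 5.30 to 5.93 in bone marrow (median 5.58). In all, 10 of the 11 spleen arrays were below every bone marrow array, and the remaining one was STAT6-KO spleen control at 5.36. The difference was -1.95 ± 0.27 (adjusted p = 8.13e-05), and the pairs lay between -3.28 and -0.28, the last being the STAT6-KO control pair.

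Padi4 ran from 1.57 to 3.62 in spleen (median 2.57) and from 4.65 to 5.36 in bone marrow (median 5.05), with no overlap. The difference was -2.56 ± 0.19 (adjusted p = 6.82e-07), or 5.89-fold, and all 10 pairs were lower in spleen. The second, dimmer probe of Padi4 gave -3.22 ± 0.17 (adjusted p = 8.05e-08), so both probes gave the same direction and differed in size.

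The formyl peptide receptors were lower in spleen in all 10 pairs. Fpr1, the high-affinity receptor, ran from 1.48 to 3.85 in spleen (median 2.79) and from 4.20 to 5.09 in bone marrow (median 4.41). Its difference was -1.75 ± 0.18 (adjusted p = 8.49e-06). Fpr2, which also binds serum amyloid A and annexin A1, ran from 1.93 to 3.83 in spleen (median 3.0) and from 4.51 to 5.06 in bone marrow (median 4.77). Its difference was -1.83 ± 0.18 (adjusted p = 6.43e-06). Neither receptor overlapped between the tissues, and the share of all genes without overlap was not counted. For Mmp8, Mmp9, Padi4, Fpr1, and Fpr2, an exact two-sided sign-flip permutation test over the 10 pairs gave p = 0.00195, the smallest it can give. The test treats the pairs as independent, although pairs of 1 genotype share slides.

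The receptors for the chemokines and the growth factor that mobilise neutrophils differed far less. Cxcr2, which binds Cxcl1 and Cxcl2, ran from 1.31 to 3.47 in spleen (median 2.58) and from 2.43 to 3.23 in bone marrow (median 2.72). The difference was -0.34 ± 0.22 (adjusted p = 0.205), with 7 of 10 pairs lower in spleen and 3 higher. Csf3r, which signals for granulocyte production, ran from 5.22 to 6.26 in spleen (median 5.80) and from 5.79 to 6.36 in bone marrow (median 6.08). Its difference was -0.25 ± 0.14 (adjusted p = 0.165), with 8 of 10 pairs lower. Both receptors overlapped widely between the tissues, and 5 of the 11 spleen arrays were below the lowest bone marrow array for each.

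The calgranulins gave some of the brightest signals, up to 168110. S100a8 ran from 5.30 to 6.38 in spleen (median 5.96) and from 5.82 to 6.92 in bone marrow (median 6.27). Its difference was -0.46 ± 0.17 (adjusted p = 0.0358), with 7 of 10 pairs lower and p = 0.0273 by exact sign-flip permutation. S100a9 ran from 5.51 to 6.48 in spleen (median 6.01) and from 6.03 to 6.97 in bone marrow (median 6.34). Its difference was -0.47 ± 0.15 (adjusted p = 0.0194), with 9 of 10 pairs lower and p = 0.00977 by exact sign-flip permutation. Without the 3 HDC-KO pairs, S100a8 was at -0.38 (adjusted p = 0.130) and S100a9 at -0.51 (adjusted p = 0.0470), and with the 4 WT pairs only they were at -0.22 (adjusted p = 0.425) and -0.36 (adjusted p = 0.209). The other 5 called members passed in both of these fits, with adjusted p up to 0.00546.

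**Figure D2:**
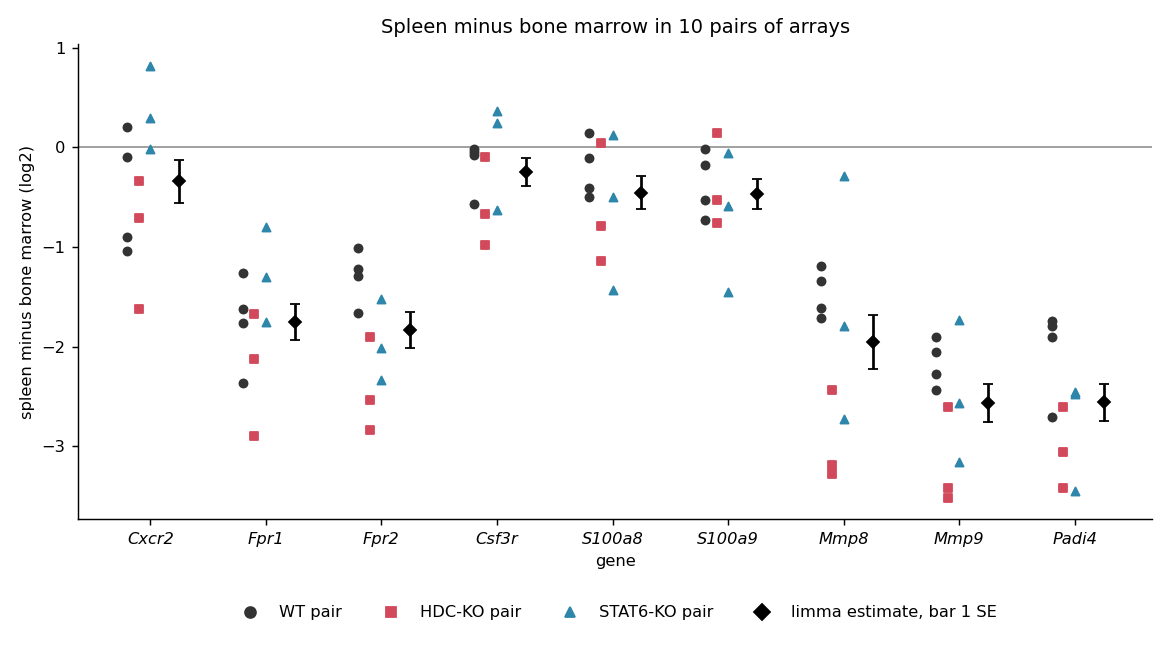
Spleen minus bone marrow (log2) for each gene in the 10 pairs of arrays, with the genotype of the pair by shape and colour. Black diamonds are the limma estimates with 1 SE. All pairs of Fpr1, Fpr2, Mmp8, Mmp9, and Padi4 lie below 0, and the pairs of Cxcr2, Csf3r, S100a8, and S100a9 lie on both sides.

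After scaling, all 9 members varied more among the spleen arrays than among the bone marrow arrays. The ratio of the SDs over 11 arrays each was 4.72 for Mmp8, 3.28 for Padi4, 3.14 for Fpr2, 2.69 for Cxcr2, 2.48 for Fpr1, and 2.02 for Mmp9. It was 1.67 for Csf3r, 1.13 for S100a8, and 1.07 for S100a9. Before scaling, the calgranulins went the other way. The SD of S100a8 was 0.15 in spleen and 0.31 in bone marrow, and that of S100a9 0.17 and 0.31. Of the 20510 genes well above background on all 22 arrays, 53.7% had the larger SD in spleen. The lowest spleen array was HDC-KO MI 2 weeks for 6 of the members. The highest was STAT6-KO control for 4 of them.

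A fold on these mixed cells cannot tell fewer neutrophils apart from less RNA per neutrophil. Markers of other neutrophil stages fell with the members in spleen, whereas markers of other cells went either way. Itgam itself was at 3.52 to 4.83 in spleen and at 5.10 to 5.85 in bone marrow, a difference of -1.47 ± 0.14 (adjusted p = 5.42e-06). All 6 azurophil granule genes were lower in spleen, with a median difference of -3.0, and the level summed over them (linear, in units of the 75th percentile) was 2.47 to 38.9 in spleen and 61.0 to 158 in bone marrow. All 6 specific granule genes were lower, with a median of -1.36 and summed levels of 142 to 325 against 307 to 589. All 6 monocyte and macrophage genes tested were higher in spleen, with a median of 1.49 and summed levels of 78.1 to 144 against 39.1 to 60.5. Of these, Adgre1, the F4/80 antigen, rose by 2.03 and Mrc1, the mannose receptor, by 2.22.

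All 5 B cell genes were higher in spleen, with summed levels of 18.4 to 71.8 against 1.63 to 26.1. Of the NK cell genes 3 of 4 were higher, with summed levels of 3.53 to 29.4 against 1.05 to 2.99, and of the dendritic cell genes 3 of 4, with 8.20 to 18.2 against 2.08 to 5.12. Of the T cell genes 3 were higher and Cd3d was lower, with summed levels of 3.60 to 14.2 against 11.5 to 21.5. All 4 basophil and mast cell genes were lower in spleen, 2 of 4 eosinophil genes were lower and 1 higher, 2 of 5 erythroid genes were higher, and 2 of 4 plasma cell genes were higher. Every gene tested in these lists of other cell types was well above background on at least 3 arrays of each tissue. The part of these cells in the members' differences was not tested.

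The genes that work beside the members did not all go the same way. Of 17 other late neutrophil transcripts, 16 were lower in spleen and 1 did not pass, with a median of -1.21. The largest were Itgb2l at -2.84, Stfa3 at -2.45, and Pglyrp1, a peptidoglycan recognition protein, at -2.17. The 4 other formyl peptide receptors tested and Anxa1, a ligand of Fpr2, were all lower, with Fpr-rs6 at -1.81, Fpr-rs3 at -1.14, and Fpr3 at -0.99. Among the other deiminases Padi3 (-1.94), Padi6, and Padi1 were lower, whereas Padi2 was higher by 1.09. Padi6 was well above background on 0 of 11 spleen arrays and 9 of 11 bone marrow arrays. Signal shared between the probes of such related genes was not tested.

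Of 11 other metalloproteinases and inhibitors, 4 were lower and 2 higher in spleen. The inhibitor Timp3 was at -4.35 and Mmp25, the membrane-bound leukolysin of neutrophils, at -2.97, whereas Mmp12, the macrophage elastase, was at 1.81. Of 8 ligands and partners of Cxcr2, 4 were lower and 1 higher. Cxcl12, which holds neutrophils in the marrow and is made by stromal cells, was at -5.58, Ppbp, a platelet chemokine, at -2.69, and Cxcl1 at 2.12. Of 7 factors of granulopoiesis, 6 were lower. Cebpe, which drives the specific granule stage, was at -1.82, Gfi1 at -1.73, and Spi1, which encodes PU.1, at -0.92. Socs3, a brake on Csf3r signalling, was at 0.32 (adjusted p = 0.0835), and Csf3 itself was not well above background on any array. Of 8 partners of the calgranulins, 3 were lower and 2 higher: S100a11 was at -1.86, S100a4 at 1.32, and S100a10 at 1.1.

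**Figure D3:**
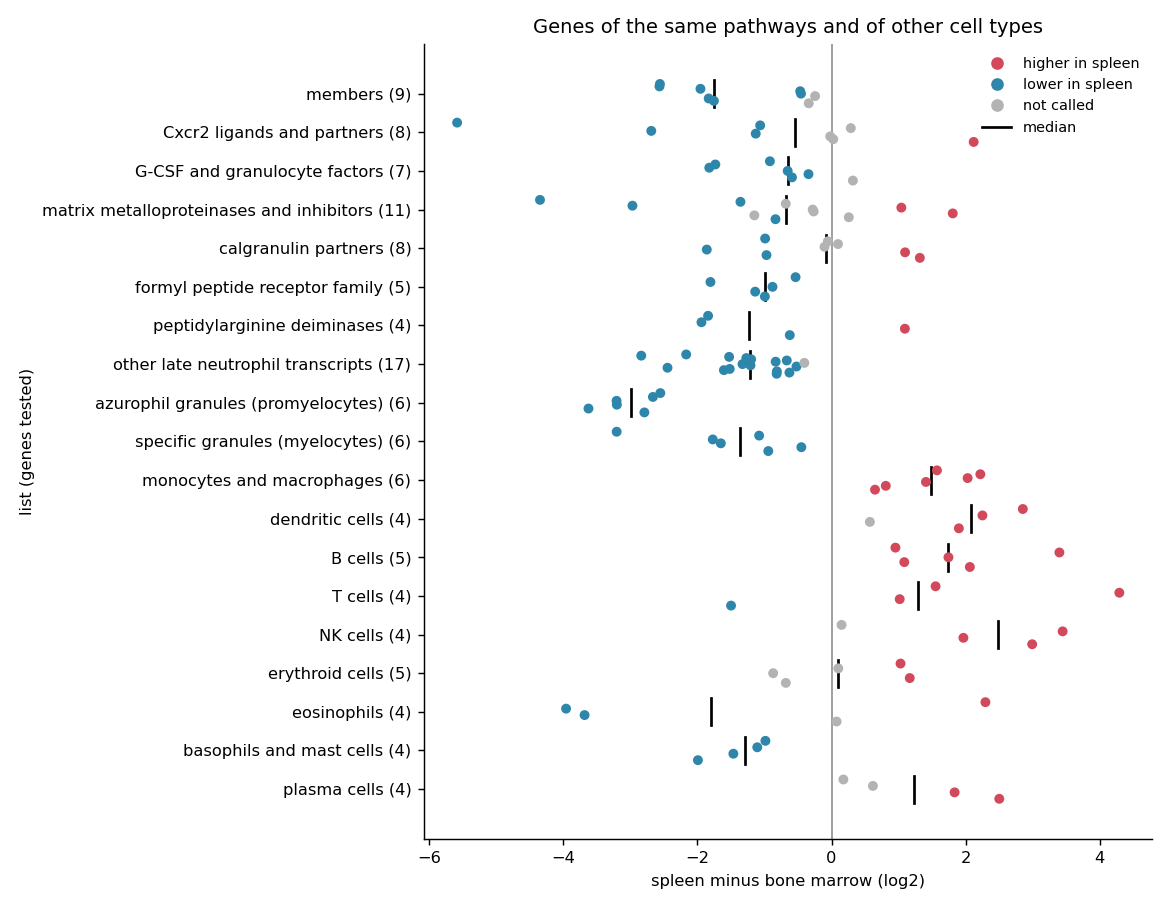
Spleen minus bone marrow (log2) for the genes of each list. Each point is 1 gene, coloured by its call (limma, adjusted p under 0.05), and black bars are medians. The neutrophil lists lie below 0, and the monocyte, dendritic cell, B cell, and NK cell lists lie above it.

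The genotypes were compared within each tissue, with the time point as a term. In the spleen of HDC-KO mice all 9 members had lower estimates than in WT, with a median of -0.61 against 0.06 over all genes, but 0 of 9 passed at an adjusted p under 0.05 (2.8% of all genes were called, 26.7% of these calls lower, or 47.3% with scaling to the median), and 3 had an unadjusted p under 0.05 (22.6% of all genes). The largest estimates were -1.20 ± 0.54 for Mmp8 (adjusted p = 0.234), -1.17 ± 0.39 for Fpr2 (adjusted p = 0.131), -1.17 ± 0.41 for Mmp9 (adjusted p = 0.148), and -1.12 ± 0.40 for Padi4 (adjusted p = 0.149).

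Mmp8 was at 3.90, 4.19, 3.97, and 4.55 in WT spleen (control, MI 1 week, MI 2 weeks, and MI 4 weeks) and at 3.49, 2.30, and 2.37 in HDC-KO spleen at the times after MI. The genotypes did not overlap for this gene. Padi4 was at 1.94, 3.62, 3.15, and 3.36 in WT and at 2.61, 1.57, and 1.90 in HDC-KO. Mmp9 was at 1.57, 2.60, 2.57, and 2.94 in WT and at 1.90, 0.85, and 1.11 in HDC-KO. Fpr2 was at 2.85, 3.76, 3.75, and 3.83 in WT and at 3.15, 2.09, and 1.93 in HDC-KO. For these 3 genes the WT control array lay within the HDC-KO range, while the WT arrays after MI lay above the HDC-KO array of the same time in every case. The share of all genes with this order was not counted. At MI 1 week the 75th percentile was 2461 in HDC-KO spleen and 1587 in WT spleen. Before scaling, Fpr2 at that time was higher in HDC-KO (21890) than in WT (21555), and Mmp9 was at 9186 and 9617. The other unscaled signals of the 3 genes kept the order.

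The count of calls differed with the arrays in the fit. With only WT and HDC-KO in the fit, where the comparison rests on the 3 matched times after MI, 4 members passed: Padi4 at -1.35 (adjusted p = 0.0181), Mmp9 at -1.41 (adjusted p = 0.0367), Mmp8 at -1.52 (adjusted p = 0.0428), and Fpr2 at -1.39 (adjusted p = 0.0440). In that fit 2604 of 26173 genes were called. Without the control time point but with STAT6-KO in the fit, Mmp9, Fpr2, and Padi4 passed, and 1289 of 26247 genes were called. The paper's methods name a fold over 2 and p under 0.05, without a design for 1 array per condition. Here that test (the methods' test) took the time points of a genotype as replicates, with no time term and with the WT control array. Without adjustment Mmp8, Fpr2, and Mmp9 passed it, as did 3.15% of all genes. The HDC-KO spleen arrays shared 1 scan date and were taken as 1 slide. At the 3 times after MI, markers of neutrophil stages moved with the members. The specific granule genes had summed levels of 145 to 222 in HDC-KO and 280 to 325 in WT, and the other late neutrophil transcripts 140 to 254 and 260 to 320, without overlap. The WT control was at 195 and 223. Itgam, on the same linear scale, was at 11.8 to 19.9 and 19.8 to 28.5. The azurophil granule genes, at 6.79 to 25.8 and 14.0 to 38.9, and the monocyte and macrophage genes, at 78.1 to 133 and 80.1 to 94.2, overlapped. The part of cell makeup or slide was not tested.

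**Figure D4:**
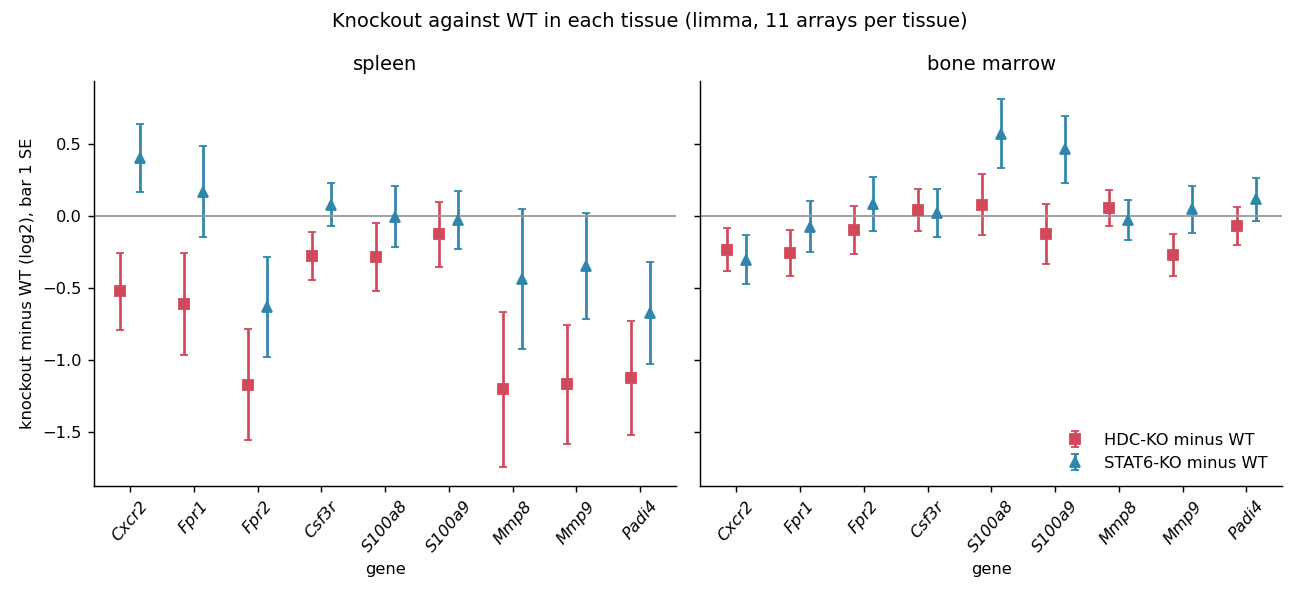
Knockout minus WT (log2, bar 1 SE) for each gene in spleen (left) and bone marrow (right), from limma fits over the 11 arrays of a tissue. In spleen all HDC-KO estimates lie below 0, between -1.20 and -0.13, while in bone marrow the HDC-KO estimates lie between -0.27 and 0.08.

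In STAT6-KO spleen the estimates lay between -0.67 for Padi4 and 0.40 for Cxcr2, and 0 of 9 members were called at an adjusted p under 0.05 or had an unadjusted p under 0.05 (1.95% of all genes were called and 22.9% had such a p). In HDC-KO bone marrow they lay between -0.27 for Mmp9 and 0.08 for S100a8, again with 0 members at either threshold (0.443 and 21.2% of all genes). In STAT6-KO bone marrow 0 of 9 were called (4.61% of all genes), and 1 had an unadjusted p under 0.05, a smaller share than the 22.4% of all genes. This was S100a8 at 0.57 ± 0.24 (adjusted p = 0.214), with S100a9 at 0.46 ± 0.23 (adjusted p = 0.293). S100a8 was at 6.71, 6.92, and 6.25 on the STAT6-KO bone marrow arrays and at 5.84, 6.52, 5.82, and 6.44 on the WT ones, which overlap. By the methods' test, 0 members were called in these 3 comparisons.

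The gap between the tissues was compared between genotypes on the pair differences. For HDC-KO against WT, 0 of 9 members were called (0.991% of all genes), and 4 had an unadjusted p under 0.05 (14.9% of all genes). Mmp8 differed by -2.97 on average between the tissues in HDC-KO (3 pairs) and by -1.46 in WT (4 pairs), a further -1.50 ± 0.50 (adjusted p = 0.203). Fpr2 differed by -2.42 and -1.30, a further -1.13 ± 0.31 (adjusted p = 0.131). For Mmp9 and Padi4 the further differences were -1.02 ± 0.37 and -0.99 ± 0.36 (adjusted p = 0.237 for both). For STAT6-KO against WT, 0 of 9 members were called or had an unadjusted p under 0.05 (0.347 and 13.7% of all genes), and the estimates lay between -0.76 for Padi4 and 0.83 for Cxcr2.

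After MI, 0 of 9 members were called at any of the 3 time points in either tissue. In spleen the share of all genes called was 7.9% at 1 week, 2.25% at 2 weeks, and 0% at 4 weeks, and in bone marrow it was 0.148%, 0%, and 0%. In spleen, 1 member had an unadjusted p under 0.05 at any of these times, Cxcr2 at MI 2 weeks with -0.78 ± 0.32 (adjusted p = 0.188). Of all genes, 27.4, 23.7, and 8.7% had such a p at 1, 2, and 4 weeks. In bone marrow all 9 estimates were above 0 at MI 1 week, between 0.15 and 0.65. Over all genes the median there was 0.06, and 44.8% were below 0. The 75th percentile of the WT bone marrow array was 1780 in control and 1106 at MI 1 week. Before scaling, Mmp9 and Padi4 were higher in WT at MI 1 week than in control, and the other members were lower. At MI 1 week in bone marrow, Mmp9 had 0.65 ± 0.19 (adjusted p = 0.154) and Padi4 0.51 ± 0.18 (adjusted p = 0.194). At MI 4 weeks Mmp9 again had 0.65 ± 0.17 (adjusted p = 0.113). In bone marrow these were the only members with an unadjusted p under 0.05, 2 at 1 week, 0 at 2 weeks, and 1 at 4 weeks. The shares of all genes were 19.7, 7.48, and 19.1%, so the members did not stand out by this count. Mmp9 in bone marrow was at 4.01, 4.87, 4.46, and 4.99 in WT and at 3.85, 4.50, 4.37, and 4.53 in HDC-KO. In STAT6-KO it was at 4.43, 4.48, and 4.74 (control, MI 2 weeks, and MI 4 weeks), so the control array was the lowest in each genotype. The methods' test, here with genotypes as replicates, called 0 members in these 6 comparisons. The comparisons share their control arrays.

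In spleen the genotypes did not move together after MI. In WT, Padi4 was above its control by 1.68, 1.21, and 1.42 at 1, 2, and 4 weeks, and Mmp9 by 1.03, 0.99, and 1.37. In STAT6-KO, Padi4 was at -0.10, -0.06, and -0.98 against its control, and Mmp9 at -0.59, -0.79, and -1.13. Mmp8 was at 5.36 in STAT6-KO control and at 3.17, 3.57, and 2.77 after MI, whereas in WT it stayed between 3.90 and 4.55. Each of these values is 1 array against 1 array. Without STAT6-KO in the fit, Padi4 had 1.85 ± 0.27 at MI 1 week (adjusted p = 0.0213 by limma, 3345 genes called in all). The control arm of that fit is the WT control array alone, which is assumed to vary like the other arrays.

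**Figure D5:**
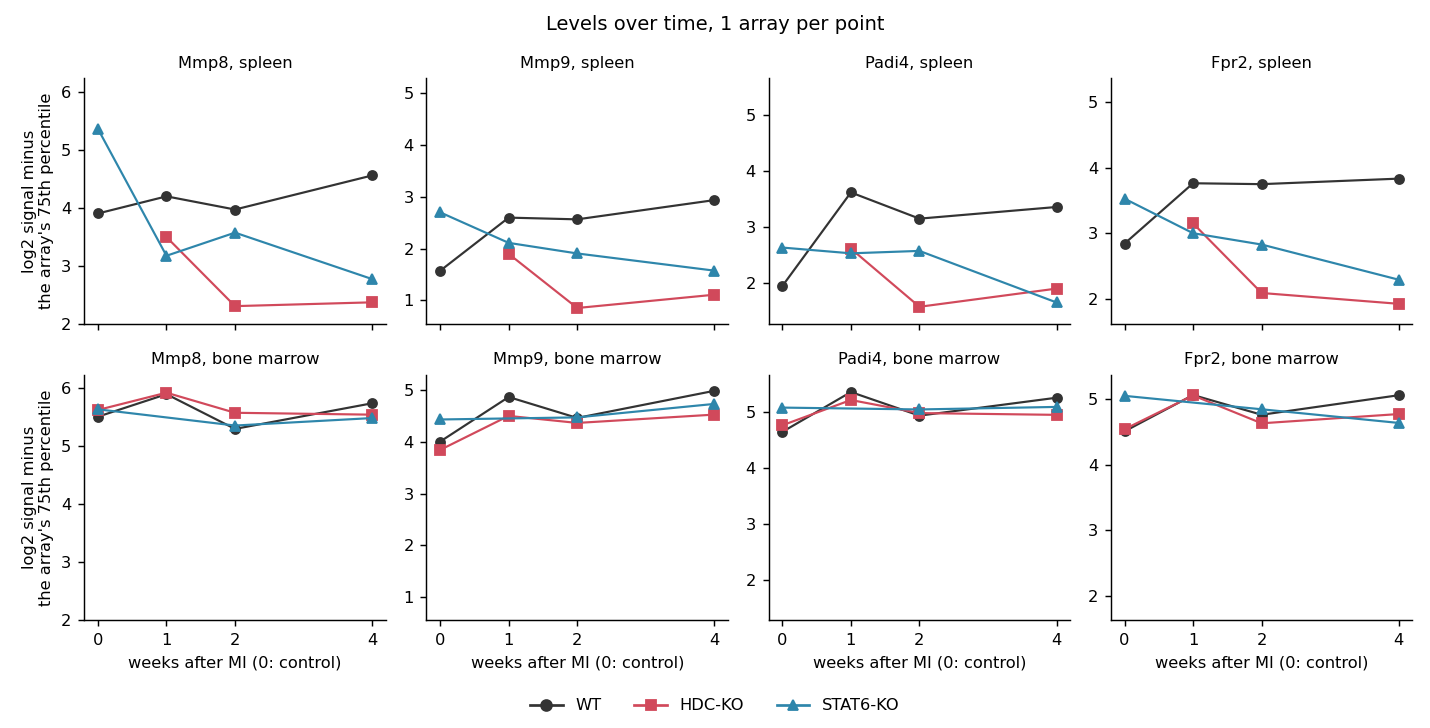
Levels of Mmp8, Mmp9, Padi4, and Fpr2 by weeks after MI (0 is control) in spleen (top) and bone marrow (bottom), with 1 array per point and 1 line per genotype. In spleen WT lies above its control array after MI for Mmp9, Padi4, and Fpr2 while STAT6-KO ends below its control, and in bone marrow the lines lie close together.

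Among the arrays of one tissue, members were compared in pairs (6 relations tested, n = 11 arrays each, 100000 permutations, p adjusted over the 6). Both genes of a pair have the same percentile subtracted, which adds shared variation where the signals themselves vary little. This holds most for S100a8 and S100a9, whose r and rho are given without a p. They were 0.98 and 0.96 in spleen and 0.91 and 0.95 in bone marrow after scaling, and 0.87 and 0.84 in spleen and 0.90 and 0.72 in bone marrow before it. Without the 2 arrays farthest from the median of S100a8, r was 0.99 and 0.86, and within slides it was 0.995 and 0.92. Mmp8 and Mmp9 had r = 0.87 and rho = 0.87 in spleen (permutation p = 0.00051 and 0.00095, adjusted 0.00102 and 0.0019), and r = 0.85 without the 2 farthest arrays. In bone marrow they had r = 0.30 and rho = 0.26 (permutation p = 0.375 and 0.433). Within slides, r of Mmp8 and Mmp9 was 0.77 in spleen and 0.46 in bone marrow. Fpr1 and Fpr2 had r = 0.65 and rho = 0.44 in spleen (permutation p = 0.0250 and 0.183, adjusted 0.0300 and 0.220) and 0.72 and 0.74 in bone marrow (permutation p = 0.00513 and 0.0129, adjusted 0.00769 and 0.0193). Without the 2 farthest arrays r was 0.55 and 0.69, and within slides it was 0.63 and 0.74. The permutations ran over all 11 arrays without holding the slide, so differences between slides enter these p-values.

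In spleen, scaling bears most on the brightest members. The percentile is part of the scaled level, so a bright gene whose signal varies little between arrays must run against it, and the correlations here are given as descriptions (n = 11 arrays each). In spleen r was -0.92 for S100a8, -0.90 for S100a9, and -0.80 for Csf3r, and in bone marrow -0.74 for Fpr2 and -0.73 for Csf3r. Before scaling, the signals of S100a8 in spleen lay between 77093 and 105150, with an SD of 0.15 on the log2 scale against 0.39 after it. For Mmp8, Mmp9, Padi4, and Fpr2 in spleen, r with the percentile lay between -0.03 and 0.20, and their SD was larger before scaling than after it. In bone marrow, r was below 0 for all 9 members, between -0.74 for Fpr2 and -0.41 for Cxcr2. It was -0.56 for Mmp8, -0.62 for Mmp9, and -0.67 for Padi4 there.

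The genes most like the members were found by their correlation with the mean of the standardised members, over 22 arrays with the mean of each tissue removed, among 14071 genes. The 10 highest were Hp (haptoglobin, r = 0.96), Retnlg (0.92), S100a6 (0.90), Gmfg (0.90), Litaf (0.89), Tprkb (0.88), Txn1 (0.87), Slpi (0.86), Carhsp1 (0.86), and Cd300lf (0.86). The members themselves, each of which is part of that mean, had r between 0.57 for Padi4 and 0.88 for Fpr1. These arrays share slides and scaling. The 10 genes also ran against the 75th percentile, with r between -0.85 and -0.41 in spleen and between -0.81 and -0.31 in bone marrow. Of the 10 genes, 9 were lower in spleen, between -0.97 for S100a6 and -0.30 for Cd300lf, and Tprkb did not pass (adjusted p = 0.0515).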

How the data were processed

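RNA of CD11b+ cells was labelled with Cy3 and hybridised to one-colour Agilent mouse arrays. The authors scanned the arrays and read them with Feature Extraction 11.0.1.1, and the deposited values are spot intensities after background subtraction, with no scaling between arrays. GCRMA, which the submitters' processing notes name, and Genespring, which the paper names, did not make these files. Of 24 files, 2 were cut short and were not used.

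Spots marked as outliers (3055 over 22 arrays) were left out, spots of 1 probe were averaged, and each array was scaled on the log2 scale by subtracting its 75th percentile, taken over 43020 spots other than controls. Of 39429 probes, 27234 were named through a RefSeq accession. For a gene with several probes, the one with the highest mean was used. Genes well above background on at least 2 arrays of a fit were tested with limma 3.58.1 in R 4.3.3, with Benjamini-Hochberg adjustment over all genes tested. Tissues were compared with the pair as a block, and genotypes and times with additive terms over the 11 arrays of a tissue. The gap between tissues was compared on pair differences. The fits were tested on simulated data, and figures were made in Python 3.11.15 (matplotlib 3.10.9, pandas 2.3.3).

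Samples were grouped by genotype, tissue, and time point as labelled. The number of arrays limits the precision. The members and the lists were chosen with earlier results of these data known. Named were the 9 members, Hdc, Stat6, and Itgam, at most 3 called genes of each list with the largest change (Spi1, Socs3, Csf3, Cd3d, and the monocyte genes were named after their values were seen), and the 10 genes most like the members. The alternatives were other background corrections, scalings, filters, probes, blocks, and sets of arrays. Normexp (offset 50) was run on the median spot signal.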

Additional observations from a re-analysis of the deposited data

Results flagged for a closer look

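Of 45 sets looked at (each gene in each genotype and tissue with 4 arrays, and the 10 pair differences), 3 held a value far from the others, where chance gives about 1 in 20. Padi4 in STAT6-KO spleen was at 1.65 at MI 4 weeks, below the other 3 arrays, and this array also stood apart in the Stat6 probes. Csf3r in WT spleen was at 6.11 at MI 4 weeks, above the other 3. Fpr2 in WT spleen was at 2.85 in the control, below the arrays after MI. 

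In 7 of 36 comparisons of time courses, all arrays after MI lay above their control in one genotype and below it in another. None of these differences was tested, since each genotype had 1 control array per tissue. In spleen, WT lay above and STAT6-KO below for 5 members and for 6.31% of all genes. One control array is shared by all times of a genotype, and genes move together, so the members are not independent of each other. For Mmp9 the range was 0.99 to 1.37 in WT and -1.13 to -0.59 in STAT6-KO, and for Padi4 1.21 to 1.68 and -0.98 to -0.0599. For Fpr2 it was 0.90 to 0.99 and -1.23 to -0.53, for Mmp8 0.0682 to 0.66 and -2.59 to -1.79, and for Csf3r 0.0009 to 0.33 and -0.67 to -0.15. In bone marrow, Fpr2 lay above its control in WT (0.25 to 0.55) and HDC-KO (0.0894 to 0.51) and below it in STAT6-KO (-0.41 to -0.20, 2 arrays). There, 19.4% of all genes had opposite signs in WT and STAT6-KO, and 14.5% in HDC-KO and STAT6-KO.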

How the results depend on the processing

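Of 231 alternative counts of called members over the 13 comparisons, 227 were equal to the count reported or within 1.5 times of it. Apart from the comparison of the tissues, the count reported was 0, so equal counts there do not show stable estimates. Member estimates changed sign in 21 of 153 alternatives for STAT6-KO in bone marrow and in 13 of 153 for STAT6-KO in spleen. For HDC-KO in spleen they did so in 2 of 153. For spleen against bone marrow the count lay between 5 and 7 under all alternatives run, and Fpr1, Fpr2, Mmp8, Mmp9, and Padi4 kept their direction and call in each of 25. S100a8 lost its call in 12 of the 25 and S100a9 in 3. Over all 25 their values lay between -0.52 and -0.22 and between -0.54 and -0.27. No member changed sign there. Slide as a random block left 6 members called, and quantile normalization, which moved the median of all genes from -0.17 to -0.06, left 7.

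For HDC-KO against WT in spleen the count of 0 became 4 with only these genotypes in the fit and 3 by the methods' test with a fold over 2. Leaving out 1 time point gave between 0 and 3, with 3 without the control. Scaling to the median moved the median of all genes there from 0.06 to -0.10 and called 0 members, and the share of calls that were lower went from 26.7% to 47.3% (49.7% with quantile normalization). For MI 1 week against control in spleen, leaving out 1 genotype gave between 0 and 1, with 1 without STAT6-KO. Mmp8 at MI 4 weeks in spleen changed sign, from -1.07 to 0.32 without STAT6-KO, and was at -2.57 without WT (not called in any). The causes were not tested. Without the block for the pair of tissues 7 members were called, as with it. All members were well above background on every array used.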
